A study of Homo sapiens with 6 samples.

Results

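NNMT, nicotinamide N-methyltransferase, and 9 further genes of NAD metabolism (NAMPT, NAPRT, NMNAT1, NMNAT3, NADK, NADSYN1, QPRT, SIRT1 and AOX1) were examined in RNA-seq data of sorafenib-resistant Huh7 cells treated with fostamatinib or DMSO. The 10 genes were chosen by name on the basis of an earlier reading of the same comparison, in which NNMT had one of the largest decreases. The differences of these genes between treatments are therefore given as descriptions, with standard errors and without p-values, and their side of the threshold in the fit over all genes is counted only as part of that description. Of the 10 symbols, 9 were found among the 16305 genes of the files, and NMNAT3 was not analysed here.

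The cells were Huh7-R (Huh7SR in the labels), a pool of resistant cells that had been derived from the hepatocellular carcinoma line Huh7 by growth in sorafenib, a multi-kinase inhibitor. According to the study's methods, the drug was withdrawn from the medium some days before experiments, a history that both groups share. One group of 3 samples received fostamatinib, a prodrug whose active form inhibits the kinase SYK and other kinases, at 2 µM for 24 h, and the other group of 3 samples received the solvent DMSO for 24 h. The labels write 2 µM for the DMSO samples as well. Treatments were applied in triplicate, but nothing states that the replicates were separate cultures, so that p-values measure only the spread between these samples, which may be technical. All values concern this single resistant pool, and no parental cells are part of the comparison.

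NNMT transfers a methyl group from S-adenosylmethionine to nicotinamide and releases 1-methylnicotinamide and S-adenosylhomocysteine. It thus draws on the nicotinamide from which cells rebuild NAD and on the methyl donor of most cellular methylation reactions, and the enzyme is abundant in liver. NAD is made from nicotinamide by salvage (NAMPT, then the NMNAT enzymes), from nicotinic acid by the Preiss-Handler route (NAPRT, NMNAT, NADSYN1) and from tryptophan by the de novo route, which joins the former through QPRT. NADK converts NAD to NADP, sirtuins such as SIRT1 and the poly(ADP-ribose) polymerases (PARPs) split NAD and release nicotinamide, and AOX1 oxidises 1-methylnicotinamide for excretion.

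The upstream sequences of 3 of the genes are shown because their RNAs behaved differently in the cells: NAMPT was lower after fostamatinib, NMNAT1 was higher, and AOX1 did not pass the threshold. Each is the 250 bases before the RefSeq start site on GRCh38.p14, read 5′ to 3′ on the gene's strand, at chr7:106284984-106285233 (minus strand) for NAMPT, chr1:9943225-9943474 (plus strand) for NMNAT1 and chr2:200585764-200586013 (plus strand) for AOX1. Capitals mark matches, on either strand, to the GC box (GGGCGG), the E-box (CACGTG) or the core of the aryl hydrocarbon receptor element (GCGTG).
NAMPT: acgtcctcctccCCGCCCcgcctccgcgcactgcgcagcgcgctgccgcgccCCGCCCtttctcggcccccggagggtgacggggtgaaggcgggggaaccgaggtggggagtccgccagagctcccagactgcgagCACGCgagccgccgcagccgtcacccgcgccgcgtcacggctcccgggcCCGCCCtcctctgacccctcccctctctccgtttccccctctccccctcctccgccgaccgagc
NMNAT1: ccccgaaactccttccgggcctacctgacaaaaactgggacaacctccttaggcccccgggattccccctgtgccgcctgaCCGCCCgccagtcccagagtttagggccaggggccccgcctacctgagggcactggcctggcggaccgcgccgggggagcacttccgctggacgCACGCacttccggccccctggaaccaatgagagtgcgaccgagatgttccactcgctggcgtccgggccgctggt
AOX1: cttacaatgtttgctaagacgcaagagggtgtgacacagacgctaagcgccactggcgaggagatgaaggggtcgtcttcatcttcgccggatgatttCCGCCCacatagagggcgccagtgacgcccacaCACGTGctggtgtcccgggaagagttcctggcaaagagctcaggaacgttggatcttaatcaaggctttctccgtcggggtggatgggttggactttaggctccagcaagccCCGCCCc

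The NAMPT sequence held 3 GC boxes and 1 GCGTG core and had a GC content of 77.2%, against a median of 58.0% over the 35116 RefSeq promoters. The NMNAT1 sequence held 1 GC box and 1 GCGTG core with a GC content of 68.8%, and the AOX1 sequence held 2 GC boxes and 1 E-box with a GC content of 57.6%. Of all promoters, 42.6% held a GC box, 32.2% a GCGTG core and 6.34% an E-box in the same window. None of the 3 sequences held the letters of a TATA box (TATAAA, in 10.7% of all promoters), an AP-1 site (TGANTCA, in 6.57%) or a STAT site (TTCNNNGAA, in 6.57%). No matches to different motifs overlapped each other, and a match is only an occurrence of these letters. Among other genes that were higher, NADSYN1 held 5 GC boxes with a GC content of 77.6%. SIRT1 held 4 GC boxes, 2 E-boxes and 2 GCGTG cores, and neither QPRT sequence held any of the motifs. The NADK sequence with a GC content of 75.2% held 4 GC boxes and 1 E-box. That with 46.8% held 1 GC box and 1 GCGTG core, and that with 54.0% held 1 TATA box. A link between these letters and the direction of change was not tested.

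The libraries held between 13303451 and 15272737 reads on genes, and the TMM factors, which correct for library composition, were within 0.994 and 1.01. All 9 hepatocyte markers were measured, and their summed level was 5044 to 5384 CPM (reads scaled to a common library size) in DMSO and 6846 to 7254 CPM after fostamatinib. Of the markers of other cell types, 2 of 5 leukocyte genes (CD14 and LYZ) summed to 9.76 to 11.1 CPM in DMSO and 9.60 to 11.6 CPM after fostamatinib. The one endothelial gene of 4 (PECAM1) had 6.10 to 6.93 CPM in DMSO and 8.72 to 9.89 CPM after fostamatinib, and 3 of 5 stellate cell or fibroblast genes (COL1A1, COL1A2 and PDGFRB) summed to 148 to 153 CPM and 191 to 198 CPM. A sum can follow its most abundant gene, and these values do not show that the genes of a list moved together. The gene with the most reads, as a mean over the 6 samples, was AFP among hepatocyte markers (30356.5 reads). It was LYZ among the leukocyte genes (142 reads) and COL1A2 among the stellate cell or fibroblast genes (2317 reads). The part of the shifts of these sums in the results was not tested.

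The comparison of the 3 fostamatinib with the 3 DMSO samples asked how the transcripts of NAD metabolism stood in resistant cells after the kinase inhibitor. In the limma fit over all genes, 7794 of 16305 genes (47.8%) passed an adjusted p of 0.05, 3795 of them higher (23.3%) and 3999 lower (24.5%) after fostamatinib. Of the 9 measured genes, 8 passed this threshold: NMNAT1, QPRT, NAPRT, NADSYN1, SIRT1 and NADK were higher, NNMT and NAMPT were lower, and AOX1 did not pass. The values of the same 8 genes did not overlap between the groups, as held for 54.1% of all genes. The median log2 fold change of the 9 genes was 0.23, that of all genes 0.0015. Since the genes were chosen with this comparison known, nothing is read from these counts.

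**Figure D1:**
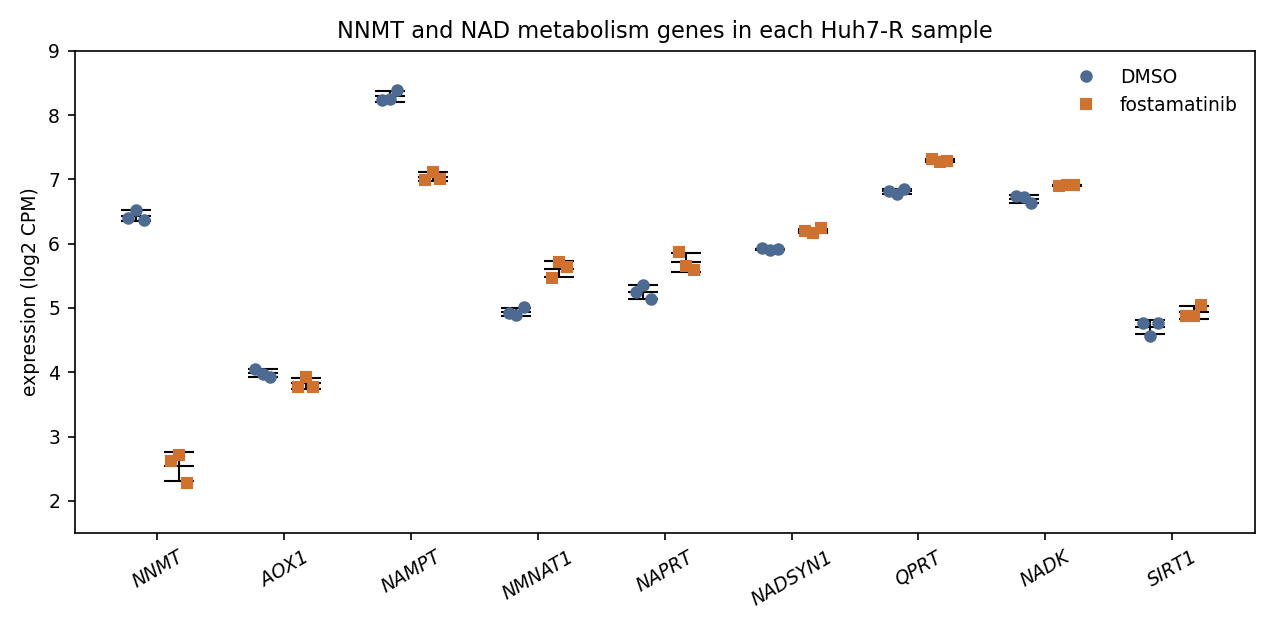
Deposited log2 CPM (vertical axis) of each of the 9 measured genes in the 3 DMSO and the 3 fostamatinib samples. Points are samples and black marks are means with SD. NNMT drops from between 6.36 and 6.53 to between 2.28 and 2.71 and NAMPT from between 8.24 and 8.39 to between 6.99 and 7.12, while the AOX1 groups overlap.

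NNMT (ENSG00000166741) lies on the plus strand of chromosome 11, at chr11:114128509-114184258 of GRCh37, the build of the files. It had 1166, 1406 and 1223 reads in DMSO replicates 1, 2 and 3 and 84, 93 and 64 reads in fostamatinib replicates 1, 2 and 3. On the deposited scale, log2 of the CPM, these were 6.40, 6.53 and 6.36 in DMSO and 2.62, 2.71 and 2.28 after fostamatinib. The 2 sets of values were far apart, and the third fostamatinib sample was the lowest of all 6.

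The log2 fold change of NNMT was −3.89 (SE 0.09, 95% confidence interval −4.07 to −3.71, n = 3 per group), a level 14.9-fold lower after fostamatinib. It was the second largest decrease among the 16305 genes, and 12 genes, NNMT included, had a change of at least this size in either direction. The values lay between −3.98 and −3.76 when any 1 sample was left out. In RNA from whole cultures, fewer cells that express a gene and less RNA per cell cannot be told apart. In DMSO the gene stood at the 83.1 percentile of all genes by log2 CPM.

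AOX1 (ENSG00000138356, chr2:201450737-201541787, plus strand), the oxidase that acts on 1-methylnicotinamide, had 227, 240 and 225 reads in the DMSO replicates and 187, 217 and 181 reads in the fostamatinib replicates. Its log2 CPM was 4.05, 3.98 and 3.92 in DMSO and 3.77, 3.93 and 3.78 after fostamatinib. The highest fostamatinib value lay above the lowest DMSO value, so that the groups overlapped. The log2 fold change of AOX1 was −0.16 (SE 0.09, 95% confidence interval −0.35 to 0.03), and 67.9% of all genes had a change at least as large. MOCOS, the enzyme that completes the molybdenum cofactor on which aldehyde oxidases depend, fell by 0.49 on the log2 scale (SE 0.083, adjusted p = 6.94e-06), from 314, 324 and 324 reads to 216, 215 and 213 reads. INMT and XDH, the other genes listed for nicotinamide methylation and clearance, were not analysed here.

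**Figure D2:**
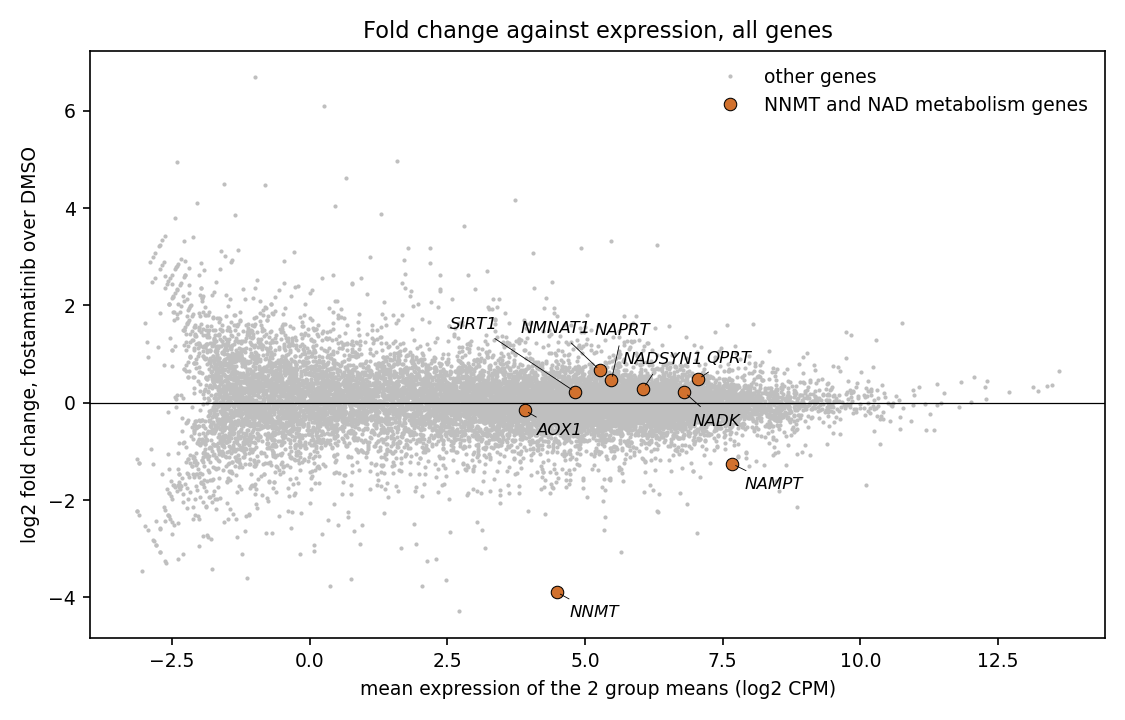
log2 fold change of fostamatinib over DMSO (vertical axis) against the mean of both group means of log2 CPM (horizontal axis) for all 16305 genes in grey, with the 9 measured genes in colour. NNMT, at −3.89, lies near the lower edge of the cloud and NAMPT, at −1.25, at its lower flank, while the other 7 lie between −0.16 and 0.66.

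The methyl-donor cycle supplies S-adenosylmethionine and removes the S-adenosylhomocysteine that NNMT releases. Of 15 genes listed for it, 13 were tested, of which 3 rose, 4 fell and 6 did not pass the threshold, and their median log2 fold change was −0.06. The share called, 53.8%, was near the 47.8% of all genes. GAMT, which uses S-adenosylmethionine to make creatine, rose by a log2 fold change of 0.95 (SE 0.054, adjusted p = 6.7e-17), from 601, 702 and 650 reads to 1169, 1276 and 1114 reads. AHCYL2, a relative of the S-adenosylhomocysteine hydrolase, rose by 0.50 on the log2 scale (adjusted p = 6.13e-08), and MAT2B, the regulatory subunit of the synthetase of S-adenosylmethionine, by 0.26 (adjusted p = 0.0035). The call of MAT2B was lost when the mean-variance trend was left out of the fit (adjusted p = 0.0823).

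The genes of the cycle that fell were MTAP, which recycles methylthioadenosine (log2 fold change −0.79, adjusted p = 9.52e-10), MTRR, which reactivates methionine synthase (−0.55, adjusted p = 2.17e-07), ADK, which phosphorylates the adenosine split from S-adenosylhomocysteine (−0.37, adjusted p = 0.000297), and AHCY, the hydrolase itself (−0.23, adjusted p = 1.83e-06). MTAP had 322, 350 and 347 reads in DMSO and 189, 197 and 169 after fostamatinib. MAT2A, the catalytic subunit of the synthetase, had a log2 fold change of −0.06 and did not pass the threshold (adjusted p = 0.243). MAT1A and GNMT, the synthetase and glycine methyltransferase typical of adult liver, were not analysed here.

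NAMPT (ENSG00000105835, chr7:105888744-105926412, minus strand), the rate-limiting enzyme of NAD salvage from nicotinamide, had 4152, 4644 and 5001 reads in the DMSO replicates and 1750, 1983 and 1704 reads in the fostamatinib replicates. Its log2 CPM was 8.24, 8.25 and 8.39 in DMSO and 6.99, 7.12 and 7.01 after fostamatinib. Every fostamatinib sample lay more than 1 log2 unit below every DMSO sample. This was a log2 fold change of −1.25 (SE 0.045, 95% confidence interval −1.34 to −1.16), a level 2.38-fold lower, and it stayed between −1.29 and −1.20 without any 1 sample. Among all genes, 5.56% changed by at least as much, and in DMSO NAMPT stood at the 96.9 percentile of log2 CPM.

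NAMPT shares sequence with NAMPTP1 (ENSG00000229644), a processed pseudogene at chr10:36810649-36813162 on the minus strand. Of the distinct 50-base windows of the annotated NAMPT transcripts, 1572 (6.32%) also occurred in NAMPTP1. There they made up 63.8% of its windows, so that reads from one could be counted to the other. NAMPTP1 had 391, 433 and 445 reads in DMSO and 149, 184 and 151 after fostamatinib, a log2 fold change of −1.30 (SE 0.087). The pseudogene carried far fewer reads than NAMPT in each sample, and both moved the same way. The antisense transcript ENSG00000273320 covered 2.31% of the NAMPT exon bases and had at most 11 reads in any sample.

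NMNAT1 (ENSG00000173614, chr1:10003486-10045559, plus strand), the nuclear enzyme that turns the product of NAMPT into NAD, had 416, 454 and 478 reads in DMSO and 609, 746 and 657 reads after fostamatinib. Its log2 CPM was 4.92, 4.90 and 5.01 in DMSO and 5.47, 5.71 and 5.63 after fostamatinib. All 3 fostamatinib samples were above all 3 DMSO samples, with the widest spread among the former. NMNAT1 thus had a log2 fold change of 0.66 (SE 0.067, 95% confidence interval 0.53 to 0.80), a 1.58-fold higher level, and 18% of all genes changed by at least as much. The annotated transcript ENSG00000241326 on the same strand shares 9.46% of the NMNAT1 exon bases, and reads in the shared stretch cannot be assigned to one of the pair.

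The other salvage genes that were tested concern nicotinamide riboside. Of 5 listed, 3 were tested, and all 3 passed the threshold, 1 higher and 2 lower, beside 47.8% of all genes. NMRK1, the kinase that phosphorylates nicotinamide riboside, rose by a log2 fold change of 0.71 (SE 0.12, adjusted p = 5.76e-06), with 143, 152 and 128 reads in DMSO and 169, 246 and 246 after fostamatinib. PNP, which splits nicotinamide riboside to nicotinamide, fell by 0.53 on the log2 scale (adjusted p = 2.43e-11), and NT5E, the surface nucleotidase that can release nicotinamide riboside outside the cell, fell by 0.68 (adjusted p = 0.000328). NT5E had 87, 94 and 95 reads in DMSO and 58, 53 and 51 after fostamatinib. NMNAT2 and NMRK2 were not analysed here.

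NAPRT (ENSG00000147813, chr8:144656955-144660819, minus strand), which starts the Preiss-Handler route from nicotinic acid, had 525, 623 and 525 reads in DMSO and 807, 718 and 640 after fostamatinib. Its log2 CPM was 5.25, 5.35 and 5.14 in DMSO and 5.88, 5.66 and 5.59 after fostamatinib. The groups did not overlap, and the first fostamatinib sample was the highest. The log2 fold change was 0.46 (SE 0.068, 95% confidence interval 0.32 to 0.60), a 1.37-fold higher level, and it was 0.38 to 0.52 without any 1 sample. The antisense transcript ENSG00000255050 overlaps 30.1% of the NAPRT exon bases. The library kit keeps the strand, but the strand setting of the counting is not given in the sources used here, so that reads of this pair may have been mixed.

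NADSYN1 (ENSG00000172890, chr11:71164155-71235153, plus strand), the synthetase of the last step of that route, had a log2 CPM of 5.93, 5.90 and 5.91 in DMSO and 6.20, 6.17 and 6.24 after fostamatinib. These values came from 837, 912 and 893 reads and from 1009, 1028 and 999 reads. The replicates of each group lay within 0.1 log2 units of each other, and the groups were apart. Its log2 fold change was 0.29 (SE 0.052, 95% confidence interval 0.19 to 0.40), a 1.22-fold higher level. SLC5A8 and SLC22A13, transporters listed for nicotinic acid uptake, were not analysed here.

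QPRT (ENSG00000103485, chr16:29674600-29710020, plus strand), where the de novo route from tryptophan enters NAD synthesis, had 1553, 1673 and 1706 reads in DMSO and 2199, 2206 and 2077 reads after fostamatinib. Its log2 CPM was 6.82, 6.78 and 6.84 in DMSO and 7.32, 7.27 and 7.29 after fostamatinib. The spread within either group was small beside the gap between them. For QPRT this gave a log2 fold change of 0.48 (SE 0.043, 95% confidence interval 0.40 to 0.57), a 1.40-fold higher level, with 27.7% of all genes changing by at least as much. SPN shares 1.03% of the QPRT exon bases.

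Of the other genes of the de novo route, 6 of 9 listed were tested, of which 2 rose, 3 fell and 1 did not pass the threshold. The share called was 83.3%, beside 47.8% of all genes. KMO, the monooxygenase that commits kynurenine towards quinolinic acid, had 59, 69 and 62 reads in DMSO and 7, 12 and 9 reads after fostamatinib, and fell by 2.64 on the log2 scale (SE 0.259, adjusted p = 1.21e-10). HAAO, the enzyme that produces the precursor of quinolinic acid, had 101, 116 and 97 reads in DMSO and 188, 196 and 195 after fostamatinib, and rose by a log2 fold change of 0.97 (SE 0.111, adjusted p = 3.57e-09). The enzymes of this route thus did not move in one direction.

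AFMID, the formamidase that yields kynurenine, rose by a log2 fold change of 0.55 (adjusted p = 1.23e-06), and KYNU, the kynureninase, fell by 0.21 on the log2 scale (adjusted p = 3.71e-05). TDO2, the tryptophan dioxygenase of hepatocytes, had 8, 19 and 13 reads in DMSO and 4, 4 and 3 after fostamatinib, with a log2 fold change of −1.57 (SE 0.464, adjusted p = 0.00512). Its call was lost without DMSO replicate 2 (log2 fold change −1.31, adjusted p = 0.0524). TDO2 reached 5 reads in 2 of 3 samples only in DMSO, the group in which it was higher, and a filter on both groups left it out. ALDH8A1 had a log2 fold change of 0.52 with an adjusted p of 0.442. IDO1, IDO2 and ACMSD were not analysed here.

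NADK (ENSG00000008130, chr1:1682671-1711896, minus strand), the cytosolic kinase that makes NADP, had a log2 CPM of 6.74, 6.73 and 6.62 in DMSO and 6.90, 6.92 and 6.92 after fostamatinib. The reads were 1472, 1617 and 1466 in DMSO and 1646, 1721 and 1601 after fostamatinib. The groups were apart by little more than the spread among the DMSO samples. Its log2 fold change was 0.21 (SE 0.046, 95% confidence interval 0.12 to 0.31), a 1.16-fold higher level, and 58.1% of all genes changed by at least as much. NNT, the transhydrogenase of mitochondria, rose by a log2 fold change of 0.26 (adjusted p = 3.04e-05), and NADK2, the mitochondrial NAD kinase, had a log2 fold change of 0.04 (adjusted p = 0.634).

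SIRT1 (ENSG00000096717, chr10:69644414-69678147, plus strand), a deacetylase that uses NAD in the nucleus, had 375, 362 and 403 reads in DMSO and 404, 416 and 436 after fostamatinib. Its log2 CPM was 4.77, 4.57 and 4.76 in DMSO and 4.88, 4.87 and 5.04 after fostamatinib. The lowest fostamatinib value lay just above the highest DMSO value. The log2 fold change was 0.23 (SE 0.075, 95% confidence interval 0.08 to 0.38), a 1.17-fold higher level. It no longer passed the threshold without DMSO replicate 2 (log2 fold change 0.16) or without fostamatinib replicate 3 (0.17), or when the mean-variance trend was left out.

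The other 6 sirtuins were all tested, of which 5 rose and none fell, beside 23.3% of all genes higher and 24.5% lower, with a median log2 fold change of 0.31 against 0.0015 over all genes. SIRT4, a mitochondrial sirtuin, had few reads, 12, 12 and 22 in DMSO and 35, 29 and 36 after fostamatinib, and rose by a log2 fold change of 1.24 (SE 0.281, adjusted p = 0.000378). SIRT2, which deacetylates tubulin in the cytoplasm, had 596, 688 and 666 reads in DMSO and 934, 955 and 850 after fostamatinib and rose by 0.58 (SE 0.056, adjusted p = 6.94e-11). The groups of both genes were apart in every sample.

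SIRT3, the main deacetylase of mitochondria, rose by a log2 fold change of 0.32 (adjusted p = 0.00152), SIRT7, found in the nucleolus, by 0.30 (adjusted p = 0.00012) and SIRT5, a desuccinylase, by 0.30 (adjusted p = 0.0147). The call of SIRT5 was lost without DMSO replicate 2 (log2 fold change 0.21, adjusted p = 0.123), without fostamatinib replicate 1 (0.25, adjusted p = 0.0817) and without the mean-variance trend (adjusted p = 0.0867). SIRT6, a deacetylase of chromatin, had a log2 fold change of 0.01 (95% confidence interval −0.17 to 0.20, adjusted p = 0.91).

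**Figure D3:**
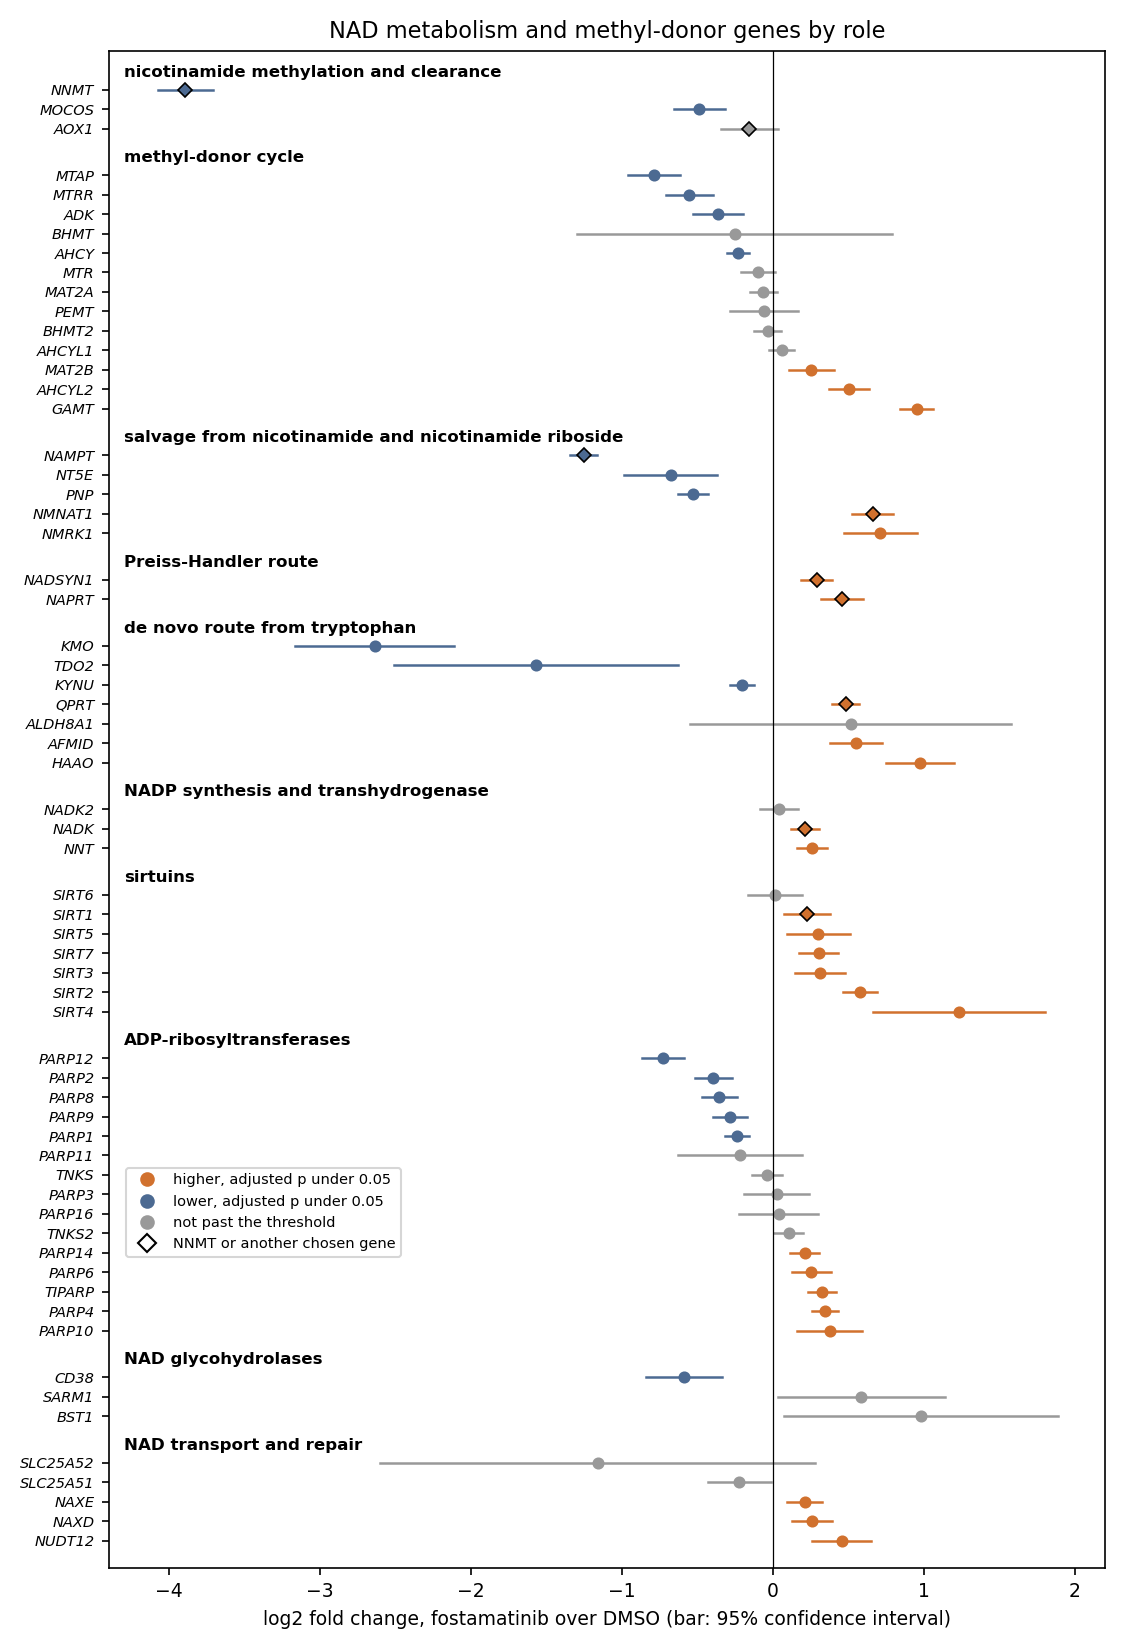
log2 fold change of fostamatinib over DMSO (horizontal axis) with 95% confidence intervals for the measured genes of each role, the 9 chosen genes drawn as diamonds. Colours give the limma call. NNMT at −3.89, KMO at −2.64 and NAMPT at −1.25 lie to the left, and 6 of the 7 sirtuins, SIRT1 included, lie to the right of 0 with calls.

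The other large consumers of NAD are the ADP-ribosyltransferases, of which all 15 listed were tested, with 5 higher, 5 lower and 5 not past the threshold, and a median log2 fold change of 0.03. The share called was 66.7%, beside 47.8% of all genes. PARP12 fell most, by 0.73 on the log2 scale (SE 0.068, adjusted p = 3.64e-11), from 645, 729 and 629 reads to 360, 388 and 388 reads. PARP1 and PARP2, which respond to DNA breaks, fell by 0.24 (adjusted p = 2.61e-06) and by 0.39 on the log2 scale (adjusted p = 9.66e-07). PARP8 and PARP9 fell by 0.35 (adjusted p = 3.36e-06) and by 0.28 (adjusted p = 5.11e-05).

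Higher were PARP10 (log2 fold change 0.38, adjusted p = 0.00382), PARP4 (0.35, adjusted p = 2.34e-08) and TIPARP, a mono-ADP-ribosyltransferase induced through the aryl hydrocarbon receptor (0.33, adjusted p = 1.51e-07), together with PARP6 (0.25) and PARP14 (0.21). The call of PARP10 was lost without fostamatinib replicate 3 (log2 fold change 0.24, adjusted p = 0.0858) and without the mean-variance trend (adjusted p = 0.0635). PARP3, PARP11, PARP16, TNKS and TNKS2 did not pass the threshold, with log2 fold changes between −0.22 (PARP11) and 0.11 (TNKS2). TNKS2 was called without DMSO replicate 3 (log2 fold change 0.12, adjusted p = 0.0322).

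CD38, a glycohydrolase that degrades NAD, had 146, 175 and 135 reads in DMSO and 90, 107 and 87 after fostamatinib, and fell by 0.59 on the log2 scale (SE 0.124, adjusted p = 0.000147). The other glycohydrolases did not pass the threshold, with a log2 fold change of 0.98 for BST1 (adjusted p = 0.0684), which had 4 to 12 reads per sample, and of 0.59 for SARM1 (adjusted p = 0.0733). BST1 was called when the mean-variance trend was left out (adjusted p = 0.0249), and SARM1 with a filter of 10 reads in every sample (adjusted p = 0.0494) and without fostamatinib replicate 2 (log2 fold change 0.83, adjusted p = 0.0196). Of 5 genes for transport and repair of NAD, 3 rose, namely NUDT12, which hydrolyses NADH (log2 fold change 0.46, adjusted p = 0.000132), and NAXD and NAXE, which repair hydrated NADH (0.26, adjusted p = 0.00115, and 0.21, adjusted p = 0.00203). The mitochondrial NAD carrier SLC25A51 had a log2 fold change of −0.22 (adjusted p = 0.0776, and 0.0173 without the trend), and SLC25A52 one of −1.16 (adjusted p = 0.183). SLC25A52 had only 3, 5 and 5 reads in DMSO and 1, 1 and 3 after fostamatinib. It reached 5 reads in 2 of 3 samples only in DMSO, the group in which it was higher.

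Over all roles, the methyl-donor cycle included, 54 of 65 listed genes other than the 10 chosen ones were tested, of which 20 rose, 16 fell and 18 did not pass the threshold. The share called, 66.7%, stood beside 47.8% of all genes, and the median log2 fold change was 0.03. The share over all genes includes genes with few reads. With 10 reads in every sample, 35 of 48 of these genes were called, beside 7321 of 13287 genes. With 5 reads in 2 of 3 samples of both groups, the counts were 35 of 51 and 7536 of 15126. The lists were set with earlier results of these data known, so nothing is read from these shares. Without the methyl-donor cycle, 17 rose and 12 fell of 41 genes.

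A further 6 genes coding for factors that have been reported to act on NNMT were considered as well, and all 6 passed the threshold, 2 higher and 4 lower, beside 47.8% of all genes. This list was set with earlier results of these data known, so that its count is no independent evidence. IL6, the cytokine that activates STAT3, had 48, 48 and 37 reads in DMSO and 6, 4 and 4 after fostamatinib. It fell by 3.04 on the log2 scale (SE 0.328, adjusted p = 1.02e-09), and it reached 5 reads in 2 of 3 samples only in DMSO. OSMR, the receptor of oncostatin M, had 8633, 9332 and 9242 reads in DMSO and 2726, 2947 and 2757 after fostamatinib and fell by 1.60 (SE 0.036, adjusted p = 3.01e-28). IL6ST, the receptor chain that IL6 and oncostatin M share, fell by 0.42 on the log2 scale and STAT3 by 0.31 (adjusted p = 6.28e-08).

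Within the same list, the interleukin receptor IL6R rose by a log2 fold change of 0.91, and the hepatic transcription factor HNF4A rose by 1.02 (adjusted p = 8.4e-22). HNF4A had 2055, 2315 and 2225 reads in DMSO and 4194, 4333 and 4051 after fostamatinib. Genes of the cytokine arm other than IL6R were lower and HNF4A was higher in the samples in which NNMT was lower, and whether any of them acted on NNMT in these cells was not tested.

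To compare levels between genes, reads were divided by gene length and library size (RPKM). Per kilobase of merged exons, NNMT had the highest level of the 9 genes in DMSO, 33.3 ± 1.98 RPKM (SD, n = 3), followed by QPRT (30.5 ± 0.71 RPKM), NADK (18.6 RPKM), NAPRT (13.4 RPKM), NAMPT (13.3 ± 0.83 RPKM), NMNAT1 (6.66 RPKM), SIRT1 (5.70 RPKM), NADSYN1 (3.70 RPKM) and AOX1 (2.92 RPKM). Among neighbours in this order, only NAPRT and NAMPT had overlapping DMSO values. After fostamatinib NNMT had the lowest mean of the 9 genes, at 2.24 ± 0.34 RPKM, and QPRT the highest, at 42.7 ± 0.70 RPKM. The fostamatinib values of NNMT overlapped those of AOX1 (2.62 ± 0.17 RPKM). NAMPT stood at 5.58 ± 0.28 RPKM, below NMNAT1 (10.6 RPKM) and SIRT1 (6.68 RPKM), which it exceeded in DMSO.

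The order depended on the length used. The merged exons of NAMPT span 23584 bases and its longest transcript 7554, and those of NADSYN1 16263 and 3616. Per kilobase of the longest transcript, QPRT led in DMSO (51.1 RPKM), NNMT (42.9 RPKM) and NAMPT (41.6 RPKM) overlapped, and NNMT after fostamatinib (2.89 RPKM) stood next to AOX1 (2.87 RPKM) at the bottom. NAPRT (20.3 RPKM) then stood below NAMPT in DMSO and above it after fostamatinib (27.9 against 17.4 RPKM). On this length NAMPT stayed above NMNAT1 (13.0 RPKM) and SIRT1 (7.42 RPKM) after fostamatinib, so that its place below them held only per merged exon length.

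**Figure D4:**
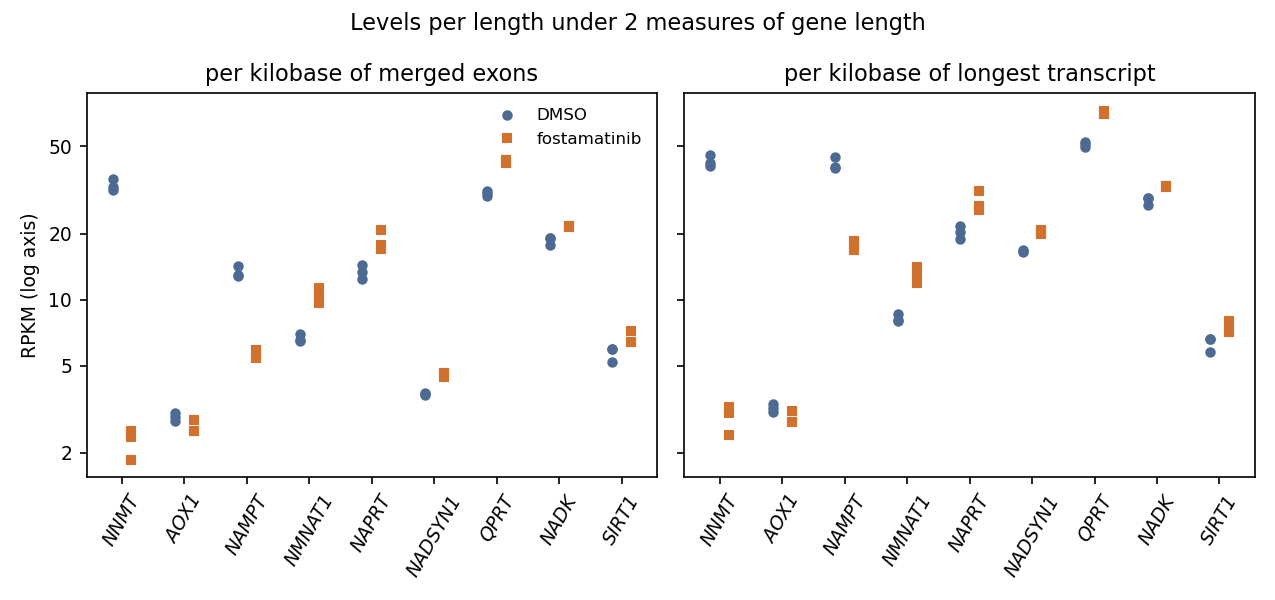
Level per length in RPKM (vertical axis, log scale) of the 9 measured genes in each DMSO sample (circles) and each fostamatinib sample (squares), per kilobase of merged exons (left) and of the longest transcript (right). NNMT moves from among the highest levels (33.3 RPKM on the left) to the lowest or next to the lowest (2.24 RPKM on the left), and the places of NAMPT and NADSYN1 differ most between the panels.

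NNMT and NAMPT compete for nicotinamide, and the ratio of their transcripts was computed in each sample. Per merged exon length, the RPKM of NAMPT over that of NNMT was 0.392, 0.364 and 0.450 in DMSO and 2.29, 2.35 and 2.93 after fostamatinib. NNMT thus had the higher level in all 3 DMSO samples and NAMPT in all 3 fostamatinib samples, although both fell. Per longest transcript, the ratio was 0.972 ± 0.107 in DMSO and 6.11 ± 0.855 after fostamatinib (SD, n = 3), so that the DMSO samples lay near equality on that length. The ratio of NAMPT to NAPRT, the entries to the routes from nicotinamide and from nicotinic acid, went from 0.998 ± 0.131 to 0.304 ± 0.0382 per merged exon length and from 2.06 to 0.629 per longest transcript. The ratios rest on the values that chose the genes and are given without a test.

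Among the 11483 genes whose DMSO samples averaged 50 reads or more, the patterns over the 6 samples most like that of NNMT, by the Euclidean distance between log2 CPM values centred on each gene's mean, were those of ASNSP1 (distance 0.477), ETV5 (0.50), CHAC1 (0.634), ENSG00000228742 (0.770) and DUSP6 (0.914). ETV5, a transcription factor of the ETS family, had 223, 219 and 223 reads in DMSO and 13, 17 and 15 after fostamatinib. CHAC1, an enzyme that degrades glutathione, had 424, 468 and 382 reads in DMSO and 22, 19 and 19 after fostamatinib. DUSP6, a phosphatase of ERK, had 231, 202 and 220 reads in DMSO and 22, 26 and 18 after fostamatinib. ASNSP1, by its name a pseudogene of ASNS, had 57, 83 and 69 reads in DMSO and only 5, 4 and 4 after fostamatinib. ASNS itself had a log2 fold change of −3.08, and whether its reads were counted to ASNSP1 was not tested. ENSG00000228742 had 71, 98 and 92 reads in DMSO and 9, 5 and 5 after fostamatinib. Genes entered this ranking by their DMSO reads alone, the group in which the genes named here were high. The distance over 2 groups of 3 samples mostly reflects a decrease of like size, and it was not tested.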

How the data were processed

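Poly(A) RNA of 6 Huh7-R samples was sequenced with a strand-keeping kit. HISAT (alignment to hg19) and featureCounts (GENCODE 22) were run by the authors, who then dropped genes of low count and applied TMM normalization, and the deposited values are log2 CPM computed from the count plus 0.5. All 16305 genes had at least 5 reads in 2 of 3 samples of 1 group or both, so that some were kept through 1 group alone. The same filter on both groups kept 15126 genes. Dividing by the step of 1 read gave whole reads for all values (tolerance 0.05). Those reads, 13303451 to 15272737 per sample, were used for RPKM and printed counts.

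The linear model of limma 3.58.1 (R 4.3.3) was fitted to the log2 CPM of 16305 genes with treatment as the single term and a mean-variance trend, and p-values were adjusted by the Benjamini-Hochberg method over all genes. Calls are at an adjusted p of 0.05. The fit was also run on simulated counts with few changed genes and changes larger than most of those here (median absolute log2 fold change 0.27). That run does not bear on calls of small changes. Positions, overlaps and lengths came from GENCODE 44 on GRCh37, in which 98.7% of gene IDs were found. Upstream sequences came from RefSeq and were considered for 8 of the 10 genes, since NNMT had no entry and NAPRT, on chromosome 8, was left out. Groups and replicate numbers came from the labels. Some listed genes are not reported here.

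The chosen genes and gene lists were set with earlier results of these data known. Named from each list were the called genes with the largest changes, up to 4 per direction, and all genes of counts up to 5, besides the 5 genes most like NNMT, genes starting within 500 kb of it, and overlapping or near-identical genes. MAT2A was named after its value was seen. The 14 alternatives covered the model, trend, scaling, filter, added count, replicate block and each sample left out. Replicates within a group differed beyond sampling noise and were all kept.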

Additional observations from a re-analysis of the deposited data

How the results depend on the processing

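Across the 14 alternatives, between 6382 genes (no mean-variance trend) and 7977 (replicate block) passed the threshold, against 7794, limma-voom on the recovered reads gave 7791, and leaving out 1 sample gave 6958 to 7480. The fold changes of the 9 measured genes kept their direction in all 126 values, and 123 kept their side of the threshold. The other 3 were those of SIRT1 without the trend (0.23), without DMSO replicate 2 (0.16) and without fostamatinib replicate 3 (0.17), so that 7 in place of 8 genes were called. Of the other pathway genes, 34 to 37 were called when 1 sample was left out, against 36. Deviations from the group means correlated by −0.044 to 0.041 between same-numbered samples (11485 genes). Between samples of different numbers the correlations ran from −0.109 to 0.088. Deviations from means of 3 samples cannot settle whether equal replicate numbers mark pairs. With the replicate block, 8 of the 9 genes and 36 pathway genes were called, and 1 of the 3 DMSO samples correlated best with its own number. The share of higher calls was 46.8% to 49.2% across scalings.

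Among 72 other named or listed genes, 967 of 992 values kept direction and side, 9 values of 6 genes lost the call and 5 values of 4 genes gained it. Direction turned in 11 values of 6 genes, none called in any setting. Leaving out 1 sample at a time, their log2 fold changes were −0.10 to 0.017 for PEMT, −0.026 to 0.88 for ALDH8A1, −0.050 to 0.087 for NADK2, −0.059 to 0.092 for SIRT6, −0.017 to 0.093 for PARP3 and −0.049 to 0.19 for PARP16.

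Levels moved beyond 1 SD when divided by the longest transcript instead of merged exons. The DMSO means were then 42.9 RPKM for NNMT, 3.20 for AOX1, 41.6 for NAMPT, 8.22 for NMNAT1, 20.3 for NAPRT, 16.6 for NADSYN1, 51.1 for QPRT, 28.4 for NADK and 6.33 for SIRT1. The difference lies in the lengths alone. Genes with few reads, such as TDO2, BST1 and SIRT4, have wide intervals at this depth.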

Other observations

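Of 31 annotated genes starting within 500 kb of NNMT on chromosome 11, 6 were tested. On the side of lower coordinates, ZW10, whose start lies 484 kb away, had a log2 fold change of −0.12 (adjusted p = 0.15), the pseudogene ATF4P4 one of −1.31 (adjusted p = 0.0109) and USP28 one of −0.10 (adjusted p = 0.257). The call of ATF4P4 was lost without DMSO replicate 3 (log2 fold change −0.97, adjusted p = 0.120). On the other side, RBM7 had a log2 fold change of −0.38 (adjusted p = 0.00158, and 0.0956 without the mean-variance trend), C11orf71 one of 0.40 (adjusted p = 0.437) and REXO2 one of −0.49 (adjusted p = 9.17e-08). None of the 6 changed by as much as NNMT, whose log2 fold change was −3.89.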
